A study of Mus musculus with 20 samples.

Results

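The 8 CC chemokine genes Ccl2, Ccl3, Ccl4, Ccl6, Ccl7, Ccl8, Ccl9 and Ccl12, whose products draw monocytes and other myeloid cells into tissue, and the receptor gene Ccr2 were followed through mouse melanomas with and without p38α. They were taken by gene symbol as a named family, with no cut on measured values, and are 9 of the 19504 named genes measured. The family was chosen with earlier results of these data known, so shares of all genes beside it are a description. Each of the 9 had a single row in the table, so no choice between rows was needed, and all 9 were kept because no filter on low values was applied.

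The study compared melanomas of 2 genotypes on 20 arrays. B mice carried Tyr::CreERT2 and BrafCA/CA, and B;p38α mice carried the same alleles together with p38αlox/lox. All pups received 4-hydroxytamoxifen on the skin, 5 mg/ml, when 2.5 and 3.5 days old, and were irradiated once with UVB on the second of these days (6.24 kJ per square meter). RNA came from complete tumors at endpoint size (5 B and 3 B;p38α), from CD45+ cells taken out of dissociated tumors with magnetic beads (3 and 3), and from the CD45- tumor and stromal cells left behind (3 and 3). CreERT2 is driven by the tyrosinase promoter, which is active in melanocytes, so all arrays come from tumors with activated BRAF, and the leukocytes of B;p38α tumors were not the cells targeted for p38α deletion. Replicates are labelled biological, but whether 2 of them can stem from 1 animal is not stated. The p-values rest on the scatter among the arrays as they are, including any technical share of it.

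CC chemokines are small secreted proteins that bind receptors on leukocytes and direct their migration. In mice CCL2, CCL7 and CCL12 bind CCR2, the receptor through which inflammatory monocytes leave the bone marrow and enter inflamed tissue and tumors. CCL8 acts on CCR8 in the mouse, CCL3 acts on CCR1, CCL4 draws monocytes and lymphocytes, and CCL6 and CCL9 are made mainly by myeloid cells and act on CCR1.

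In RefSeq the chemokine genes lie on chromosome 11 in clusters. Ccl2 is followed by Ccl7, Ccl11, Ccl12, Ccl8 and Ccl1, and Ccl5 is followed by Ccl9, Ccl6, Ccl3 and Ccl4. Ccr2 lies on chromosome 9, next to Ccr3. Promoter sequences were found for 6 of the 9 genes, each 300 bases long, 250 before and 50 after the gene's start. Of those printed, Ccl9 and Ccl6 are neighbors that had lower means in B;p38α complete tumors, and Ccl12 and Ccl8 are neighbors whose levels varied together among the arrays of a group. They are RefSeq sequences of GRCm38.p6, written 5′ to 3′ on the gene's strand, and capitals mark matches to a TATA box, AP-1 or NF-kB motif on either strand.
Ccl9, chr11:83578587-83578886, minus strand: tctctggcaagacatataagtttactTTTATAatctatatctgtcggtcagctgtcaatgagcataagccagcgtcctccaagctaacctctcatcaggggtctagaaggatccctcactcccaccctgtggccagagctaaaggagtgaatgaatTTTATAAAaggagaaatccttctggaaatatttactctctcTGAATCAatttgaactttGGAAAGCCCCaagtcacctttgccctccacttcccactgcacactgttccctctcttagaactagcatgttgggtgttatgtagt
Ccl6, chr11:83593038-83593337, minus strand: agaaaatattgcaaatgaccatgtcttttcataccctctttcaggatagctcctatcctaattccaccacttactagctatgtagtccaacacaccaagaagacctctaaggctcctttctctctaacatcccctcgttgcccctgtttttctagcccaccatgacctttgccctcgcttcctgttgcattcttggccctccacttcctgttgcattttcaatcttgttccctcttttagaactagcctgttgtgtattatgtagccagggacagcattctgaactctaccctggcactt
Ccl12, chr11:82101595-82101894, plus strand: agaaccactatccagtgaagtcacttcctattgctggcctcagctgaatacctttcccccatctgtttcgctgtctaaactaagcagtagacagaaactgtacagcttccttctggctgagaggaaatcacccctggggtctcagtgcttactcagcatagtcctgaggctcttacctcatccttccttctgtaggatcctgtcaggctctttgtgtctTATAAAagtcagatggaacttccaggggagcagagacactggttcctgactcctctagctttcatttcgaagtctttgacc
Ccl8, chr11:82114935-82115234, plus strand: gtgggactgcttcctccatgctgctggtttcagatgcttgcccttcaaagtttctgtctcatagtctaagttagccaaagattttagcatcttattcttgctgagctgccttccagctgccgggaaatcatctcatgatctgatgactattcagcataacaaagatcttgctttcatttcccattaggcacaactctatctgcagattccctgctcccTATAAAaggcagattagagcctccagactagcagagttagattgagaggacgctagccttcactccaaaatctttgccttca
The TATA box letters TATAAA were found in 3 of the 6 promoters and in 13.6% of all 32851 promoters of the table. They began at position -32 from the start in Ccl8 and at -31 in Ccl12, whereas in Ccl9 the nearest began at -92 and overlapped a match on the opposite strand. Ccl9 was the only one of the 6 with the AP-1 letters TGANTCA, at -53, and with an NF-kB match, on the opposite strand at -35. All promoters held these motifs in 7.81% and 4.51% of cases. Letters of the interferon-stimulated response element (ISRE) and of STAT sites (TTCNNNGAA) were in none of the 6, against 3.44% and 8.3% of all promoters. A match describes letters and is not a measured binding site.

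Array medians ran from 6.75 to 7.02 on the log2 scale. The array of B CD45- replicate 1 was compressed (interquartile range 2.95, while all others had 3.41 to 3.89). The pair of arrays closest to each other was B;p38α CD45+ replicate 1 with replicate 2 (Pearson r = 0.991 over genes). Mapk14, the p38α gene, was lower in B;p38α by -0.27, -0.18 and -0.16 in complete, CD45+ and CD45- samples (limma adjusted p = 0.807, 0.672 and 0.803). Where its probes lie relative to the deleted part is not known. Ptprc, the gene of CD45, lay between 11.20 and 12.14 in CD45+ arrays, between 9.66 and 9.95 in B CD45- arrays and between 6.80 and 8.63 in B;p38α CD45- arrays. In B tumors the CD45- cells therefore had a Ptprc level near that of complete tumors (difference -0.23, limma adjusted p = 0.718), whereas in B;p38α tumors they were lower by -1.90 (adjusted p = 0.0147). Markers of other cells were present in the CD45+ arrays too. The endothelial marker mean was 9.66 in B and 8.81 in B;p38α CD45+ cells, above the 8.18 and 7.87 of CD45- cells. The fibroblast marker mean was 10.95 and 10.99, against 11.67 and 11.50 in CD45- cells. Values of CD45+ cells are therefore not those of leukocytes alone. Leukocyte markers were present in the CD45- arrays as well, with a mean of 9.24 in B and 7.73 in B;p38α. In complete tumors that mean was 9.76 and 9.30. Values of CD45- cells are likewise not those of tumor and stromal cells alone. The genotypes were not balanced in the mean level of 3 Y-linked genes, which only males carry. It was 2.75 to 3.23 in the CD45+ arrays and 2.99 to 3.85 in the complete tumors of B;p38α, against 4.30, 5.36 and 8.67 in B CD45+ arrays and 2.76 to 9.29 in B complete tumors, of which 2 were high (8.93 and 9.29). In CD45- cells both genotypes held low and high arrays.

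**Figure D1:**
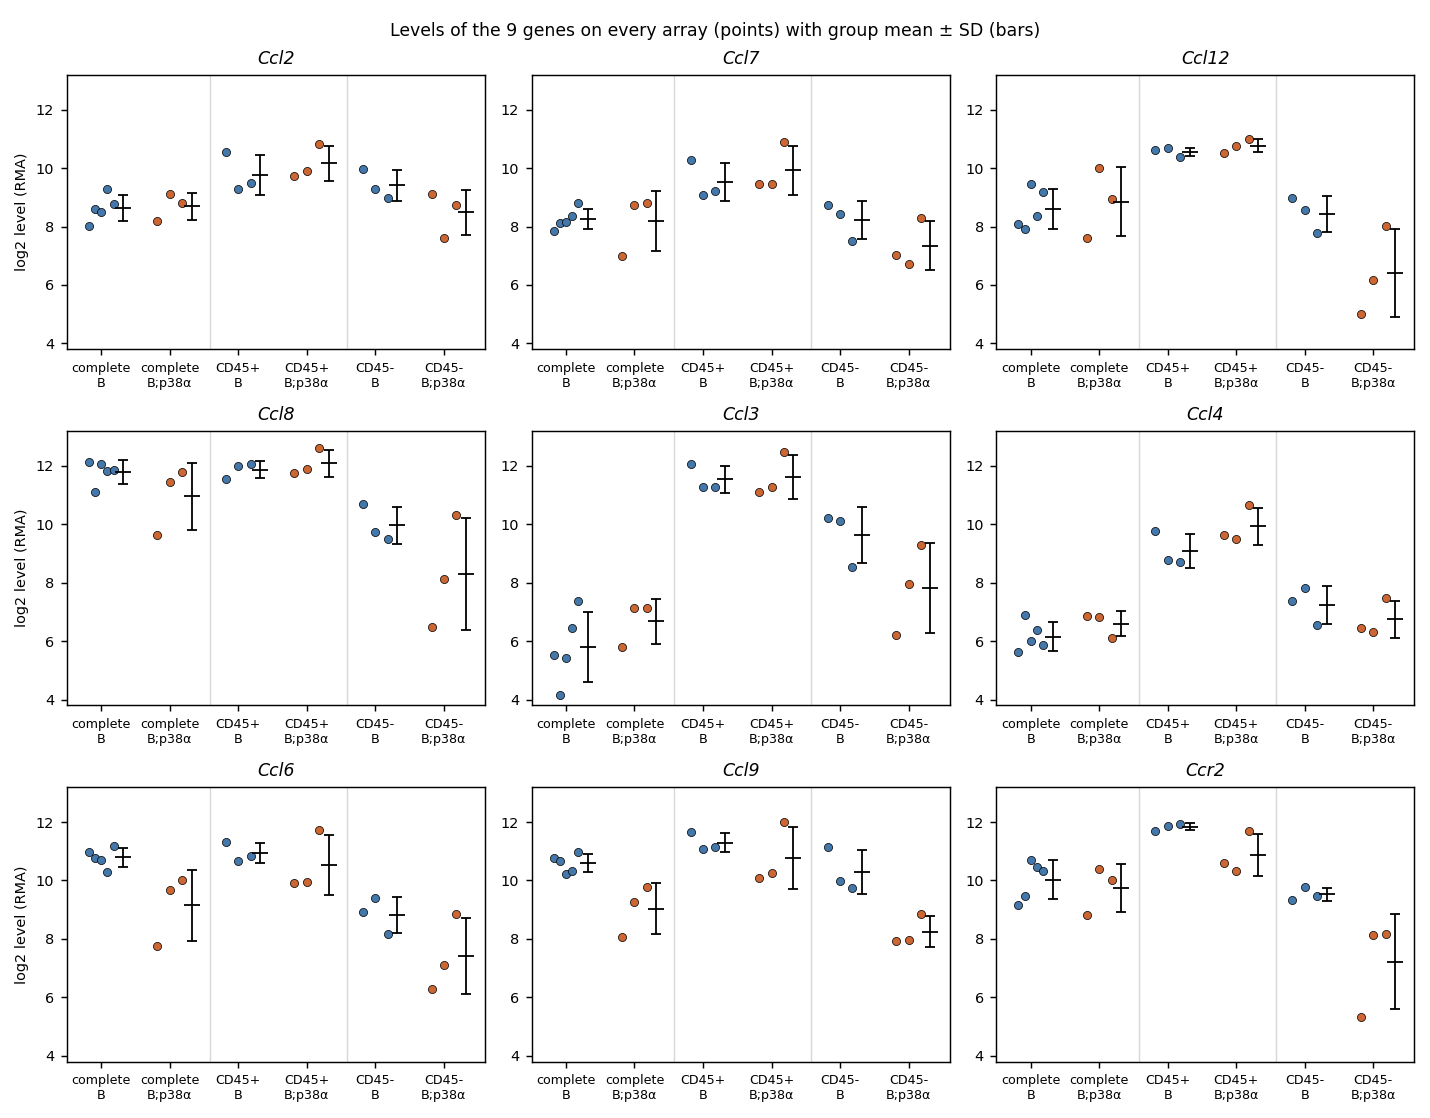
Log2 level of each of the 9 genes on every array, by compartment and genotype (blue for B and orange for B;p38α), with group mean and SD beside the points. The sorted CD45+ arrays lie above the CD45- arrays for most genes, and the B;p38α CD45- arrays spread widest for Ccl8, Ccl12, Ccl3 and Ccr2.

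Ccl2, the main CCR2 ligand, had the narrowest range of the 9 genes, with group means that spanned 1.67 on the log2 scale. In complete tumors its log2 level was 8.03, 8.61, 8.48, 9.27 and 8.76 in the 5 B arrays and 8.20, 9.10 and 8.81 in the 3 B;p38α arrays. CD45+ cells gave 10.54, 9.27 and 9.50 in B and 9.74, 9.89 and 10.84 in B;p38α, and CD45- cells gave 9.98, 9.29 and 8.96 in B and 9.10, 7.62 and 8.73 in B;p38α. The genotypes overlapped in every compartment. Of the 5 gaps between neighbors in the order of its 6 group means, 1 was larger than the SD of both groups, that between B CD45- (9.41 ± 0.52, SD, n = 3) and B;p38α complete tumors (8.70 ± 0.46, n = 3), and even these groups overlapped.

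Ccl7 encodes a second CCR2 ligand and sits next to Ccl2. Its complete tumor levels were 7.84, 8.12, 8.15, 8.35 and 8.79 in B and 6.99, 8.75 and 8.82 in B;p38α, where replicate 1 lay below all B arrays and the other two within or just above their range. CD45+ levels were 10.28, 9.07 and 9.23 in B and 9.44, 9.44 and 10.88 in B;p38α. CD45- levels were 8.73, 8.42 and 7.51 in B and 7.02, 6.73 and 8.29 in B;p38α, so that the genotypes overlapped here too. Every CD45+ array exceeded every CD45- array.

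Ccl12, the third CCR2 ligand and one that the mouse has and humans lack, spread much wider, over 4.36 between its highest and lowest group means. Complete tumors gave 8.09, 7.90, 9.45, 8.35 and 9.17 in B and 7.61, 9.99 and 8.95 in B;p38α. In CD45+ cells all 6 arrays lay close together, at 10.61, 10.67 and 10.39 in B and 10.53, 10.77 and 11.00 in B;p38α. The CD45- cells of B tumors gave 8.97, 8.58 and 7.77, and those of B;p38α tumors 5.02, 6.18 and 8.02, so that 2 of the 3 B;p38α arrays lay below all B arrays and replicate 3 did not.

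Ccl8 lies next to Ccl12 and its product is a chemokine of skin and of tissue macrophages. Its level was 12.13, 11.10, 12.07, 11.83 and 11.87 in B and 9.63, 11.44 and 11.78 in B;p38α complete tumors. CD45+ cells gave 11.54, 12.00 and 12.05 in B and 11.76, 11.88 and 12.62 in B;p38α, a range that also held 5 of the 8 complete tumors. In CD45- cells the level was 10.69, 9.72 and 9.48 in B and 6.49, 8.14 and 10.31 in B;p38α. The lowest array of complete tumors and of CD45- cells was in each case B;p38α replicate 1.

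Ccl3 encodes an inflammatory chemokine that activated macrophages release, and it had the widest range of the set, 5.83 between group means. In complete tumors it was 5.53, 4.17, 5.42, 6.46 and 7.37 in B and 5.79, 7.15 and 7.12 in B;p38α. The CD45+ arrays lay far above these, at 12.07, 11.27 and 11.29 in B and 11.11, 11.28 and 12.47 in B;p38α. CD45- cells gave 10.23, 10.12 and 8.53 in B and 6.21, 7.94 and 9.29 in B;p38α. Of these 6 arrays 5 lay between the complete tumors and the CD45+ cells, and B;p38α replicate 1 lay within the range of the complete tumors.

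Ccl4, its neighbor, whose product draws monocytes and lymphocytes, had the same order of group means. Complete tumors ranged from 5.63 to 6.90 in B and from 6.12 to 6.86 in B;p38α. CD45+ cells gave 9.76, 8.78 and 8.71 in B and 9.63, 9.51 and 10.65 in B;p38α, above all other arrays. CD45- cells gave 7.39, 7.82 and 6.54 in B and 6.44, 6.33 and 7.48 in B;p38α, overlapping each other and the complete tumors.

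Ccl6 and Ccl9, adjacent genes for myeloid chemokines, were the pair in which the genotypes separated in complete tumors. Ccl6 was 10.98, 10.77, 10.69, 10.30 and 11.19 in B and 7.75, 9.68 and 10.01 in B;p38α complete tumors, so that all 3 B;p38α tumors lay below all 5 B tumors. Ccl9 was 10.78, 10.67, 10.22, 10.33 and 10.96 in B and 8.07, 9.28 and 9.76 in B;p38α, again without overlap. In both genes B;p38α replicate 1 was the lowest.

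In CD45+ cells Ccl6 was 11.33, 10.68 and 10.82 in B and 9.91, 9.95 and 11.71 in B;p38α, and Ccl9 was 11.66, 11.06 and 11.14 in B and 10.07, 10.26 and 12.00 in B;p38α. For both genes B;p38α replicate 3 was the highest and the closely alike replicates 1 and 2 the lowest of the 6 arrays. In CD45- cells Ccl6 was 8.93, 9.39 and 8.16 in B and 6.30, 7.12 and 8.85 in B;p38α, with overlap. Ccl9 there was 11.16, 9.97 and 9.75 in B and 7.94, 7.97 and 8.85 in B;p38α, without overlap.

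Ccr2 encodes the receptor and marks inflammatory monocytes and some dendritic and T cells. Its level was 9.17, 9.47, 10.70, 10.46 and 10.32 in B and 8.81, 10.40 and 10.03 in B;p38α complete tumors. CD45+ cells gave 11.69, 11.88 and 11.94 in B and 10.60, 10.34 and 11.69 in B;p38α, where replicate 3 reached the lowest B array and the other two did not. CD45- cells gave 9.32, 9.76 and 9.47 in B and 5.34, 8.15 and 8.17 in B;p38α, without overlap. B;p38α CD45- cells were the group with the lowest mean of Ccr2, and also of Ccl2, Ccl6, Ccl7, Ccl8, Ccl9 and Ccl12.

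Ordered from high to low, the group means began with the 2 CD45+ groups for Ccl2, Ccl3, Ccl4, Ccl7, Ccl8, Ccl9, Ccl12 and Ccr2, whereas for Ccl6 B complete tumors came between them. Few steps between neighbors in this order exceeded the SD of both groups, and Ccl8 had 0 such steps. Ccl7 had 1, from B CD45+ cells down to B complete tumors (1.27), and Ccl9 had 1, from B CD45- cells down to B;p38α complete tumors (1.25). Ccl12 had 2, from B CD45+ cells to B;p38α complete tumors (1.71) and from B to B;p38α CD45- cells (2.03). Ccl3 had 2, from B CD45+ to B CD45- cells (1.91) and from B to B;p38α CD45- cells (1.81), and Ccl4 had 2, between the CD45+ groups (0.85) and from B CD45+ to B CD45- cells (1.84). Ccl6 had 2, from CD45+ cells to complete tumors of B;p38α mice (1.38) and from B to B;p38α CD45- cells (1.41). Ccr2 had 3, between the CD45+ groups (0.96), from B;p38α CD45+ cells to B complete tumors (0.85) and from B to B;p38α CD45- cells (2.30).

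The first comparison asked in which sorted population the levels of the 9 genes were higher. With both genotypes averaged, 8 of the 9 were higher in CD45+ than in CD45- cells (limma, p under 0.05 after Benjamini-Hochberg adjustment), against 7.79% of all genes, and the median difference of the 9 was 2.61 against -0.08 over all genes. Among the CCR2 ligands Ccl12 was 9.44-fold higher (log2 difference 3.24 ± 0.42, SE, limma adjusted p = 0.000383) and Ccl7 3.83-fold higher (1.94 ± 0.37, adjusted p = 0.00561). Ccr2 itself was 7.94-fold higher (2.99 ± 0.45, adjusted p = 0.00108), Ccl3 7.25-fold, Ccl8 7.14-fold, Ccl6 6.11-fold, Ccl4 5.69-fold and Ccl9 3.39-fold, with limma adjusted p-values from 0.000362 to 0.00827. Ccl2 did not pass, at 1.02 ± 0.33 (95% interval 0.29 to 1.74, limma adjusted p = 0.0714).

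For 7 of the 9 genes every CD45+ array exceeded every CD45- array, against 5.78% of all genes. The exceptions were Ccl2 and Ccl9, and in both the highest CD45- array was B CD45- replicate 1, the array of narrow range. Without that array Ccl2 passed, at 1.16 (limma adjusted p = 0.0418), although B CD45- replicate 2 (9.29) still lay just above B CD45+ replicate 2 (9.27). The samples are mixtures, so more cells of a type and more RNA per cell cannot be told apart here or below. All 10 general leukocyte markers and all 10 measured macrophage markers were also higher in CD45+ cells, by medians of 2.79 and 2.77.

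Within B tumors 1 of the 9 passed, Ccl4 at 1.84 ± 0.45 (limma adjusted p = 0.0428), against 3.9% of all genes. Within B;p38α tumors 8 passed, all but Ccl2, against 4.34% of all genes, from 2.52 ± 0.51 for Ccl9 to 4.36 ± 0.59 for Ccl12 (limma adjusted p = 0.014 and 0.00108). All 9 differences were larger in B;p38α than in B tumors, by 0.99 for Ccl6 to 2.24 for Ccl12, where 45.1% of all genes had an excess in that direction. None of these 9 excesses passed the test of the difference itself (limma adjusted p = 1), as was so for all genes (0%). At an unadjusted p under 0.05 there was 1, Ccl12 (95% interval 0.42 to 4.07), against 1.95% of all genes. The sizes rested on few arrays. Without B;p38α CD45+ replicate 3 the excess was 0.40 for Ccl6, 0.79 for Ccl7 and 0.92 for Ccl9. Without B;p38α CD45- replicate 1 it was 0.40 for Ccr2, 0.43 for Ccl6, 0.95 for Ccl8 and 1.09 for Ccl3, and without replicate 3 of that group it was 1.70 for Ccl6 and 2.87 for Ccl8. The leukocyte list moved alongside, with a median difference between CD45+ and CD45- cells of 2.16 in B and 3.39 in B;p38α tumors. Its part in these values was not tested.

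**Figure D2:**
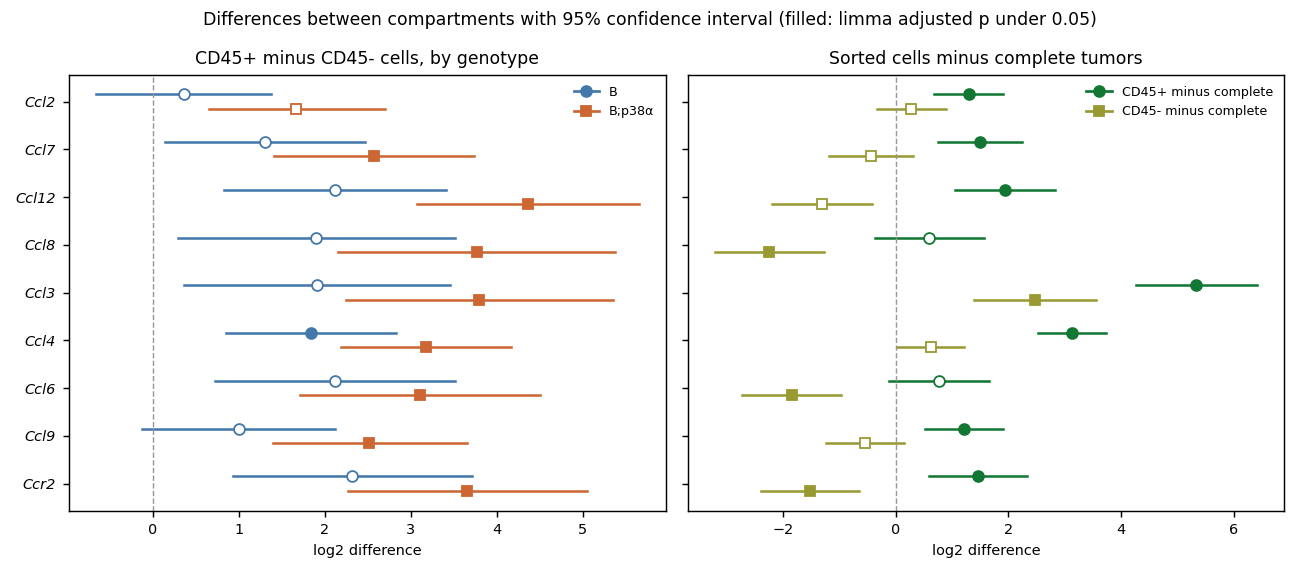
Log2 difference with 95% confidence interval for each gene, on the left CD45+ minus CD45- cells in B (blue circles) and B;p38α (orange squares), on the right sorted cells minus complete tumors averaged over genotypes (green circles for CD45+ and olive squares for CD45-). Filled symbols have a limma adjusted p under 0.05. Ccl3 is the only gene filled above zero in both sorted populations, and Ccl8, Ccl6 and Ccr2 are filled below zero in CD45- cells.

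Sorted cells were next set against the complete tumors, which had not been dissociated. Both comparisons share arrays with each other and with the one of CD45+ against CD45- cells. In CD45+ cells 7 of the 9 genes were higher than in complete tumors, against 12.9% of all genes. Ccl3 was 40.5-fold higher (5.34 ± 0.51, limma adjusted p = 1.38e-06) and Ccl4 8.73-fold (3.13 ± 0.29, adjusted p = 9.58e-07). Ccl12 (1.94), Ccl7 (1.50), Ccr2 (1.47), Ccl2 (1.30) and Ccl9 (1.22) were higher by less, with limma adjusted p-values from 0.00254 to 0.0133. Ccl6, at 0.77 (95% interval -0.11 to 1.65, limma adjusted p = 0.199), and Ccl8, at 0.60 (-0.37 to 1.57, adjusted p = 0.383), did not pass, and without B;p38α complete replicate 1 they were at 0.42 and 0.27.

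In CD45- cells 1 of the 9 genes was higher and 3 were lower than in complete tumors, against 6.24% and 6.47% of all genes. Ccl3 was higher by 2.48 ± 0.51 (5.59-fold, limma adjusted p = 0.00529), Ccl8 lower by -2.24 ± 0.46 (adjusted p = 0.00519), Ccl6 by -1.84 ± 0.42 (adjusted p = 0.00908) and Ccr2 by -1.52 ± 0.41 (adjusted p = 0.0228). The Ccr2 call ended without B;p38α complete replicate 2 or 3 (limma adjusted p = 0.0681 and 0.0588) and without the 2 arrays of narrowest range (0.0511). Ccl12 just missed, at -1.30 ± 0.42 (limma adjusted p = 0.0523), and passed without B complete replicate 2, B;p38α complete replicate 1 or B;p38α CD45- replicate 3 (0.0462, 0.0169 and 0.00907). Ccl2, Ccl4, Ccl7 and Ccl9 lay between -0.54 and 0.62. In B tumors alone Ccl3 was 14.3-fold higher in CD45- cells than in complete tumors, without overlap (3.84 ± 0.68, limma adjusted p = 0.00773), and in B;p38α tumors 2.18-fold, with overlap (1.13 ± 0.76, adjusted p = 0.459). The difference between these was -2.71 ± 1.02 (limma adjusted p = 0.474).

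Immediate early genes, which dissociation of tissue is known to induce, were higher in both sorted populations, as was Ccl3. In CD45- cells Ccl8, Ccl6 and Ccr2 went the other way. All 14 of the list were higher in CD45+ cells and 11 of 14 in CD45- cells than in complete tumors, by medians of 2.36 and 1.39. Their mean level was 8.37 to 9.54 in complete tumors, 10.62 to 11.53 in CD45+ and 9.64 to 10.76 in CD45- cells, without overlap between complete and sorted arrays. Dissociation and the kind of cell cannot be told apart in this design, since the complete tumors were not dissociated. Skeletal muscle markers moved the other way in both sorted populations, where all 7 were lower than in complete tumors (limma adjusted p under 0.05). Their medians were -4.27 in CD45+ and -4.13 in CD45- cells. Of all genes 6.47% were lower in CD45- cells, and in CD45+ cells 5037 passed in either direction, of which 2516 were higher. The muscle marker mean was 5.08 to 5.86 in the sorted arrays, 10.25 to 11.05 in B complete tumors and 5.69, 8.77 and 10.90 in those of the other genotype. The part of these lists in the chemokine differences was not tested. In CD45- cells 9 of 10 macrophage markers were lower than in complete tumors by the same test (median -1.31), against 6.47% of all genes. So were 7 of 10 leukocyte markers (median -1.01).

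The study's main question was what loss of p38α in the melanocytes changed in each compartment. In complete tumors 0 of the 9 genes passed, as did 0% of all genes (limma, adjusted p under 0.05). Ccl9, lower by -1.56 ± 0.34 (95% interval -2.32 to -0.79, 2.94-fold, limma adjusted p = 0.707), and Ccl6, lower by -1.64 ± 0.45 (-2.64 to -0.65, 3.12-fold, limma adjusted p = 0.709), were the 2 of 9 without overlap between genotypes, against 2.54% of all genes that were lower without overlap. They were also the 2 of 9 with an unadjusted p under 0.05, against 6.61% or 1289 of all genes, and ranked at 29 and 118 of 19504 by p. Without B;p38α replicate 1 the means were -1.07 for Ccl9 and -0.95 for Ccl6.

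The other 7 genes had limma adjusted p-values from 0.778 to 0.987 in complete tumors. Ccl8 was at -0.85 (95% interval -1.84 to 0.14) and at -0.19 without B;p38α replicate 1. The CCR2 ligands were near zero, Ccl2 at 0.07 (-0.57 to 0.71), Ccl7 at -0.06 (-0.95 to 0.82) and Ccl12 at 0.26 (-0.90 to 1.41), and so was Ccr2 at -0.28 (-1.24 to 0.68). Ccl3 at 0.90 and Ccl4 at 0.44 were higher in the mean, within the spread of the arrays, and Ccl3 was at 0.49 without B replicate 2. Beside these, 9 of 10 macrophage markers and 9 of 10 leukocyte markers had lower means, by medians of -0.66 and -0.49. Lower means also prevailed among classical monocyte (9 of 11), nonclassical monocyte (5 of 7), neutrophil (8 of 9) and mast cell markers (6 of 7). Higher means prevailed among NK cell (6 of 7), T cell (5 of 8) and B cell markers (3 of 4). Dendritic cell markers were split, with 4 higher and 5 lower. The macrophage mean was 9.25, 9.82 and 9.84 in B;p38α, lowest in replicate 1, and 10.14 to 10.55 in B tumors. The classical monocyte mean was 8.80, 9.34 and 9.30 against 9.62 to 9.99, also without overlap. All 7 skeletal muscle markers had lower means as well, by a median of -2.03, and replicate 1, the lowest array of Ccl6 and Ccl9, was also the lowest in their mean (5.69). The part of these lists in the Ccl6 and Ccl9 values was not tested.

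**Figure D3:**
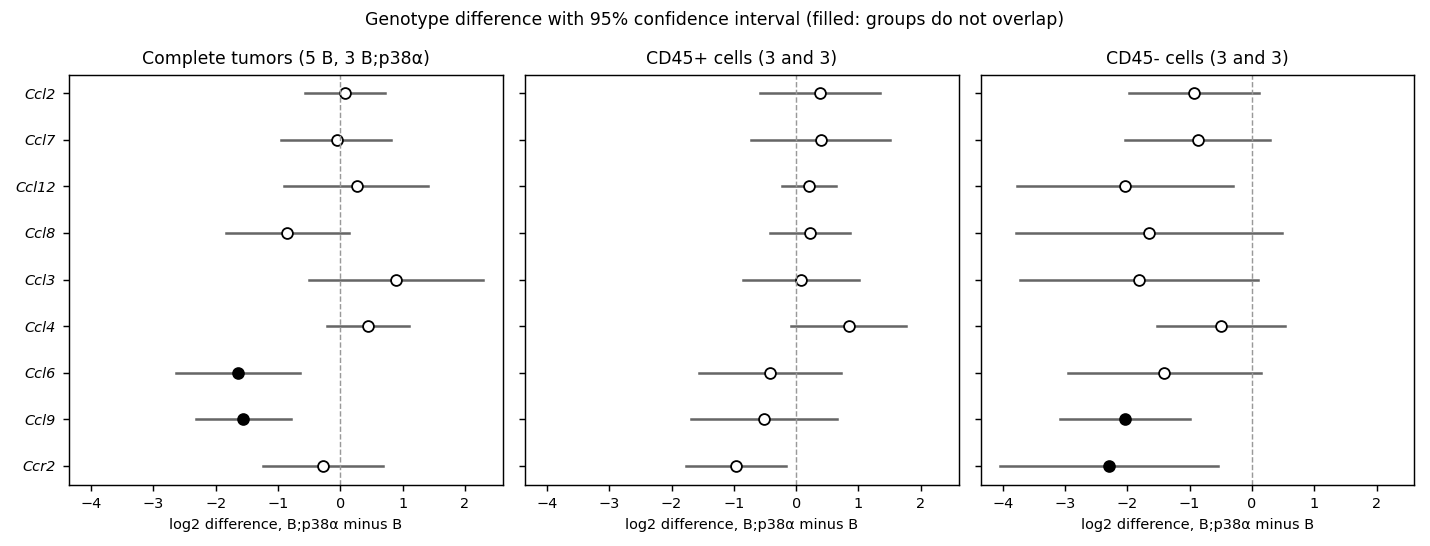
Log2 difference between genotypes (B;p38α minus B) with 95% confidence interval for each gene in complete tumors, CD45+ cells and CD45- cells. Filled points mark genes whose arrays do not overlap between genotypes. Filled are Ccl6 and Ccl9 in complete tumors and Ccl9 and Ccr2 in CD45- cells, and in CD45- cells all 9 points lie left of zero.

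In CD45+ cells, enriched for the leukocytes not targeted for deletion, 0 of 9 genes passed and 0 of 9 separated without overlap. Of all genes 0% passed, 9.16% were higher and 7.35% lower without overlap. Ccr2 was the 1 gene with an unadjusted p under 0.05 (10.8% or 2101 of all genes), at -0.96 ± 0.34 (95% interval -1.76 to -0.16, limma adjusted p = 0.45). Ccl4 was at 0.85 ± 0.39 (-0.08 to 1.77, limma adjusted p = 0.476), and without B;p38α replicate 3 at 0.49. Ccl9 (-0.51) and Ccl6 (-0.42) again had lower means, with intervals from -1.68 to 0.65 and from -1.56 to 0.72. Both rested on the choice of arrays, at -1.12 and -1.01 without B;p38α replicate 3 and at -0.16 and -0.11 without replicate 1. Ccl12, whose arrays were the tightest, differed by 0.21 (-0.22 to 0.64). In the same arrays Ptprc was at -0.53 (limma adjusted p = 0.476). The leukocyte marker mean was 10.80, 10.75 and 11.44 in B;p38α and 11.36, 11.14 and 11.24 in B. The immediate early mean was 11.21, 11.22 and 11.53 in B;p38α and 11.32, 10.62 and 10.70 in B. Their part in the values of the 9 genes was not tested. With the Y-linked level as a covariate Ccl4 was at 1.53, Ccl2 at 1.22 (0.39 without it), Ccl9 at -0.22 and Ccl6 at -0.09, and none of the 9 passed (limma). That level was low in all B;p38α CD45+ arrays (2.75 to 3.23) and 8.67, 4.30 and 5.36 in B. These adjusted values therefore rest mostly on the B arrays, of which replicate 1 stood apart, and sex and genotype are poorly separated here.

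In CD45- cells all 9 genes had lower means in B;p38α, with a median of -1.65 against 0.05 over all genes, of which 55.8% were higher. None of the 9 passed (limma adjusted p from 0.675 to 0.713), against 0.0103% of all genes. Ccr2 was at -2.30 ± 0.74 (4.91-fold lower, 95% interval -4.04 to -0.55), Ccl9 at -2.04 ± 0.44 (4.11-fold) and Ccl12 at -2.03 ± 0.74 (4.10-fold, -3.77 to -0.30), each with a limma adjusted p of 0.675. These were the 3 genes with an unadjusted p under 0.05 (6.76% or 1319 of all genes), and Ccr2 and Ccl9 were the 2 without overlap (5.36% of all genes were lower without overlap). Ccl3 (-1.81), Ccl8 (-1.65), Ccl6 (-1.41), Ccl2 (-0.93), Ccl7 (-0.87) and Ccl4 (-0.50) had wide intervals that included zero.

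B;p38α CD45- replicate 1 weighed on several of these values. Without it Ccr2 was at -1.36, Ccl12 at -1.34, Ccl3 at -1.01, Ccl6 at -0.85 and Ccl8 at -0.74. Other arrays mattered too. Without replicate 2 of the same group Ccl2 was at -0.49 and Ccl7 at -0.57, and without its replicate 3 Ccl8 was at -2.65, Ccl6 at -2.12, Ccl7 at -1.34 and Ccl4 at -0.86. Ccl4 was at -0.21 without B replicate 2. B;p38α replicate 1 was also the array with the lowest leukocyte marker mean, 6.37 against 8.17 and 8.63 in the other CD45- arrays of that genotype and 9.08 to 9.37 in B. All 10 leukocyte and all 10 macrophage markers had lower means in these cells than in those of B tumors, by medians of -1.57 and -1.59. Lower means were also found for 8 of 8 T cell, 7 of 7 mast cell, 7 of 7 nonclassical monocyte, 8 of 9 dendritic cell, 6 of 7 NK cell and 9 of 11 classical monocyte markers, and for 4 of 9 neutrophil markers. The mean of the B cell markers was nearly the same, 5.36 in B and 5.34 in B;p38α. The part of these lists in the chemokine values was not tested. Whether the genotype difference differed between CD45- cells and complete tumors was tested as well, and 0 of 9 passed (0% of all genes). The 3 with an unadjusted p under 0.05 were Ccl3 (-2.71), Ccl12 (-2.29) and Ccr2 (-2.02), with limma adjusted p-values of 0.474 or more, and 9.69% of all genes reached that unadjusted level.

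How the 9 genes varied among arrays of the same group is described by Pearson correlations of the deviations from the group means over the 20 arrays. These share one normalization and a few arrays that lie far out, and no p is given. Ccl7 went with Ccl6 and Ccl9 (r = 0.87 each), Ccl8 with its neighbor Ccl12 (0.86) and Ccl6 with its neighbor Ccl9 (0.83). Ccl2 went with its neighbor Ccl7 (0.76) and hardly with Ccl8 (0.15) or with the receptor gene Ccr2 (0.04). Ccl3 and Ccl4, also neighbors, had 0.30, although over plain levels they had 0.87.

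Correlations with the means of gene lists differed from gene to gene. Ccl2 had 0.83 with the immediate early genes, 0.12 with the macrophage and 0.01 with the leukocyte markers, and Ccr2 had 0.19, 0.78 and 0.87. Ccl8 and Ccl6 followed the macrophage markers (0.89 and 0.86), and Ccl7 both kinds (0.80 with immediate early genes, 0.66 with macrophage markers). With classical monocyte markers Ccl8 had 0.90, Ccr2 0.84, Ccl12 0.82, Ccl6 0.81 and Ccl3 0.80. Lower values there were those of Ccl7 (0.62), Ccl9 (0.56), Ccl4 (0.36) and Ccl2 (0.07). Outside the set, the genes whose deviations were most like those of Ccl2 were Zdhhc19, Pim1, Klf4, Junb and Fam71a (0.77 to 0.80), and for Ccr2 they were Ptprc, Ms4a4c, Cd209a, Clec4a3 and H2-M3 (0.91 to 0.95). Over plain levels they were Clec4e, Pim1, Atf3, Zfp36 and Fam71a for Ccl2 (0.86 to 0.88) and Clec4a3, Ctss, Clec12a, Ms4a4c and Cybb for Ccr2 (0.97 each). Junb, Atf3 and Zfp36 are members of the immediate early list, Ptprc of the leukocyte list, Ms4a4c of the classical monocyte list and Cd209a of the dendritic cell list.

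**Figure D4:**
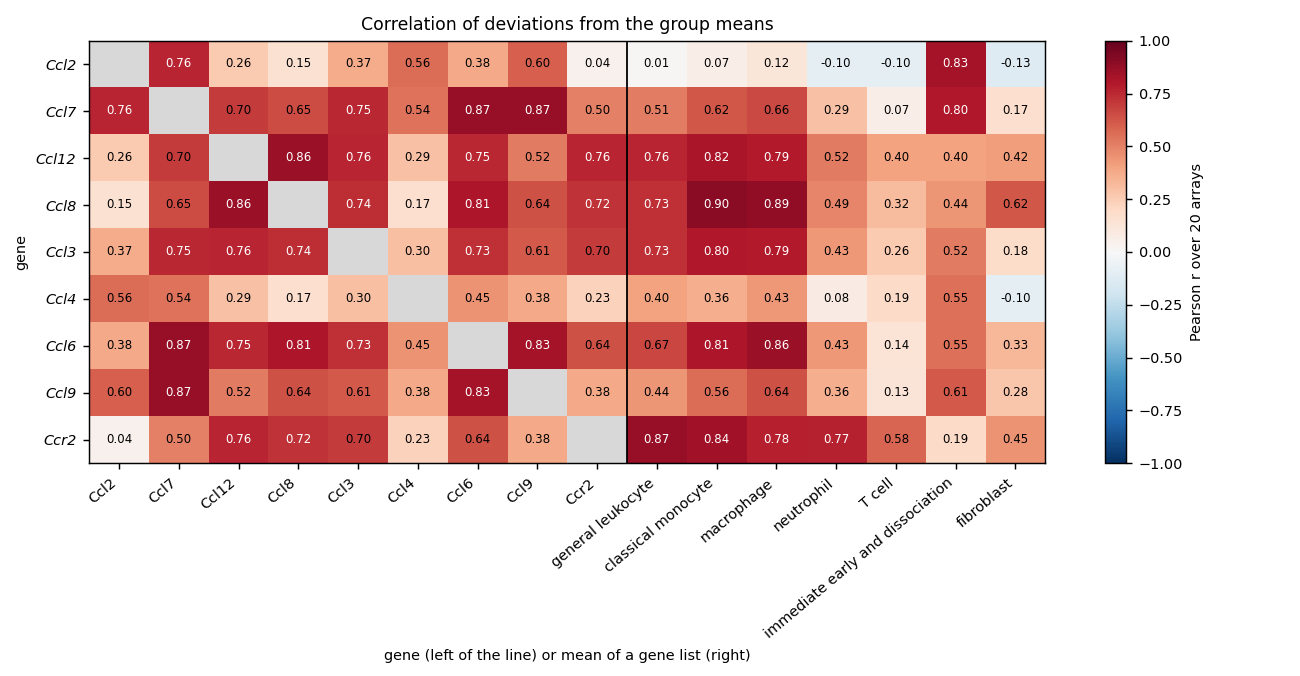
Pearson r over 20 arrays between the deviations from the group means of each gene (rows) and those of the other genes or of the mean of a gene list (columns, right of the line). The Ccl2 row is near zero for the leukocyte and macrophage lists and 0.83 for immediate early genes, and the Ccr2 row is 0.87 for leukocyte markers and 0.19 for immediate early genes.

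The other CC chemokines and receptors were described from the same fits. Of 13 other CC chemokines, 3 were higher in CD45+ than in CD45- cells, against 7.79% of all genes, namely the CCR4 ligands Ccl22 (2.64 ± 0.20) and Ccl17 (2.46 ± 0.39) and the T cell chemokine Ccl5 (2.04 ± 0.16). Their limma adjusted p-values were 2.21e-05, 0.00157 and 2.3e-05, and the median difference of the 13 was -0.03. None of the 13 passed between genotypes in any compartment (limma), and 1, 3 and 2 had an unadjusted p under 0.05 in complete tumors, CD45+ and CD45- cells, against 6.61%, 10.8% and 6.76% of all genes. Of 10 measured other receptors, 6 were higher in CD45+ cells, led by Ccr1 (3.22 ± 0.40, limma adjusted p = 0.000326), the receptor of CCL3, CCL6 and CCL9, and the atypical receptor Ccrl2 (2.38 ± 0.32, adjusted p = 0.000512). None of the 10 passed between genotypes, with 0, 2 and 3 at an unadjusted p under 0.05, beside the same shares of all genes. In CD45- cells Ccr1 was at -1.86 ± 0.69 in B;p38α against B (limma adjusted p = 0.675), beside Ccr2 at -2.30.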

How the data were processed

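Total RNA of the 20 samples was labeled with biotin and hybridized to 1-color arrays. The authors deposited log2 expression values made with RMA, per the submitters' processing notes, so background correction, normalization and summary of probes came before deposition. The version of RMA and the build are not given in the sources used here. In the table were 21244 rows, with values from 1.31 to 14.15. Of these 19570 had 1 gene symbol, 0 several and 1674 none, and the row with the highest mean was kept per symbol, giving 19504 genes. All symbols matched RefSeq by entrez number. The number of arrays limits the precision.

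Groups came from the labels. Differences are B;p38α minus B or as named, fitted with lmFit and eBayes of limma 3.58.1 (R 4.3.3) without covariates over all genes, with Benjamini-Hochberg adjustment and a threshold of 0.05. Each genotype comparison used its own compartment's arrays, CD45+ against CD45- the 4 sorted groups, and sorted against complete all 6 groups. The 9 genes are all described. Of other lists up to 4 members with the largest difference are named. The members and the 26 gene lists were chosen with earlier results of these data known. The fits were also run on simulated data with independent noise and added differences, to check the size and sign they return. Those data lacked the uneven arrays of the real ones, so they do not show which real differences could be found. Figures were drawn with matplotlib 3.10.9.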

Additional observations from a re-analysis of the deposited data

How the results depend on the processing

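Over the alternatives tried (all 6 groups or only the compared groups in the fit, a replicate block, dim genes left out, repeated quantile normalization, array weights, trended robust variance, every row, a Y-linked covariate, each array left out, and, chosen after seeing the data, averaging the 2 most alike arrays or leaving out the 2 of narrowest range), 1217 of 1251 values of the 9 genes kept their direction and side of the threshold, 17 reversed, 14 passed newly and 3 no longer passed. The causes were not tested. Array weights made 2 of the 9 pass between genotypes in CD45+ cells, Ccl4 (0.90, limma adjusted p = 0.0241) and Ccr2 (-1.36, 0.00823), as they did 5303 of all genes, and gave Ccl7 0.17 in complete tumors, Ccl3 -0.01 and Ccl8 -0.13 in CD45+ cells. The Y-linked covariate gave Ccl8 -0.20 there, and leaving out the 2 narrow arrays gave Ccl3 -0.06. With single arrays left out, differences in complete tumors ran from -0.13 to 0.33 for Ccl2, -0.38 to 0.53 for Ccl7, -0.31 to 0.88 for Ccl12 and -0.61 to 0.19 for Ccr2, and in CD45+ cells from -0.35 to 0.34 for Ccl3, -0.08 to 0.77 for Ccl7 and -0.05 to 0.38 for Ccl8. In CD45- against complete samples Ccl12 passed with dim genes left out (limma adjusted p = 0.0368) and with array weights (0.0222), and Ccl2 passed between CD45+ and CD45- cells in the fit of all 6 groups (0.0311), with dim genes left out (0.0459), with array weights (0.0209) and without the 2 narrow arrays (0.0424).

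Same-numbered replicates did not deviate together throughout (r from -0.57 to 0.36, over 0.1 in 5 of 15 pairs). Pairs of CD45+ with CD45- cells could share a tumor, whereas the other pairs were of different genotypes. For the former r was -0.47, -0.57 and 0.36 in B and 0.30, -0.11 and 0.35 in B;p38α. With so few arrays per group this cannot decide whether the numbers pair samples. The main fits assumed no pairing. With the number as a replicate block Ccl7 was at 0.15 in complete tumors, Ccl2 passed between CD45+ and CD45- cells (limma adjusted p = 0.0478) and Ccl6 passed in CD45+ against complete samples (0.0488), and 27 genes passed in complete tumors and 1484 in CD45- against complete samples.

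Counts over all genes moved more. Between genotypes they were 0 to 49 in complete tumors with single arrays left out (0 with all), 0 to 30 in CD45+ cells (0 with all, 2 in the fit of all 6 groups, 7 with dim genes left out, 5 with trended robust variance, 250 with the Y-linked covariate) and 0 to 4 in CD45- cells (2 with all, 0 in the fit of all 6 groups, 4 with array weights, 1 with the Y-linked covariate). For CD45+ against CD45- cells 2372 genes passed (4275 with array weights, 1648 to 3145 with single arrays left out), and 0 to 1 for the excess between genotypes. For CD45- against complete samples 2479 passed (1459 to 2990 with single arrays left out) and for CD45+ against complete samples 5037 (7769 with array weights, 4169 to 5036).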

Other observations

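Genes that induce or accompany these chemokines were described from lists, without a test of the lists. Of 13 measured genes of NF-kB and cytokine induction, 9 were higher in CD45+ than in CD45- cells (7.79% of all genes were), led by the inflammatory cytokine genes Il1b (3.18 ± 0.35, limma adjusted p = 0.000134) and Tnf (2.85 ± 0.38, adjusted p = 0.000483). In CD45- against complete samples 5 of the 13 were higher (6.24% of all genes), among them Tnf (2.05 ± 0.36, limma adjusted p = 0.00185) and its feedback inhibitor gene Tnfaip3 (1.47 ± 0.33, adjusted p = 0.00889). None passed between genotypes in limma, with 1, 2 and 3 at an unadjusted p under 0.05 in complete tumors, CD45+ and CD45- cells, against 6.61%, 10.8% and 6.76% of all genes.

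Of 8 genes for myeloid growth factors and their receptors, 4 receptor genes were higher in CD45+ than in CD45- cells (7.79% of all genes were). Among them were Csf3r (2.80 ± 0.33) and Csf1r (2.77 ± 0.41, limma adjusted p = 0.000206 and 0.000995). Csf1, the growth factor gene of macrophages, was the 1 that was lower (-0.75 ± 0.17, limma adjusted p = 0.0158). In this comparison 2372 of all 19504 genes passed in either direction. Csf1 was higher in CD45- than in complete samples (1.19 ± 0.20, limma adjusted p = 0.00175), where Csf1r was lower (-1.18 ± 0.32, adjusted p = 0.0218). Of the 4 genes for atypical receptors, which take up chemokines without signaling, 0 passed between CD45+ and CD45- cells or between genotypes in limma. Between genotypes 1, 0 and 1 had an unadjusted p under 0.05 in complete tumors, CD45+ and CD45- cells, against 6.61%, 10.8% and 6.76% of all genes. Ackr1 was at 1.83 ± 0.61 between genotypes in CD45- cells (adjusted p = 0.675).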
